A study of Mus musculus with 6 samples.

Results

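Satb1 and a pair of transcripts inside an intron of it were followed across 6 libraries of regulatory T cells (Treg). The 3 rows, Satb1, Gm37248 and 5830444F18Rik, were taken by name from a table of 29199 genes, and all 3 passed the filter on low counts, which kept 18321 genes. They had been picked for being lower in Treg that met HP1α KO conventional T cells, so their differences between the groups are given below as descriptions, with no test.

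The libraries came from a bone marrow allograft in mice. Irradiated B6 hosts received B6 and B6D2F1 marrow together with naive conventional CD4 T cells (Tconv) and Treg. In both groups the Treg were wild type (WT), came from B6 Foxp3-Thy1.1 mice and had been expanded in culture, with anti-CD3/CD28 beads, IL-2 and TGFb for 3 days and then without the beads for 5 to 7 days. In 3 libraries the co-injected Tconv were WT, and in the other 3 they were knocked out (KO) for HP1α, a protein that reads methylated histone H3 in heterochromatin. The deletion was made with a CMV-cre transgene, which acts in the whole animal, and the KO and WT Tconv donors were littermates on a mixed genetic background. The littermates were matched for sex and aged 6 to 12 weeks. The groups are called Treg with WT Tconv (the WT group) and Treg with HP1α KO Tconv (the KO group). Treg were sorted from the spleen 3 weeks after the graft as CD4+ cells positive for Thy1.1, H-2Kb and CD45.2 and negative for H-2Kd and CD45.1, and total RNA was sequenced. How many mice stood behind a library was not given in the sources used here, so the spread between libraries may be partly technical.

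SATB1 is a DNA-binding protein that is abundant in thymocytes. It recognises stretches rich in A and T, ties chromatin into loops and brings in histone-modifying and remodelling complexes. In thymic precursors of Treg it helps to open the enhancers of Foxp3 and other Treg genes, and in mature Treg FOXP3 holds its gene down, directly and through the microRNA miR-155, since Treg with high SATB1 take on features of effector T cells. Gm37248 and 5830444F18Rik have no known function. The annotation puts both in the class TEC, transcripts seen in sequence databases whose structure still awaits experimental proof.

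All positions are on the GRCm39 build. Satb1 (ENSMUSG00000023927) lies on the minus strand at chr17:52043114-52140622, a span of 97.5 kb, and its canonical transcript (ENSMUST00000144331.9) joins 11 exons into 6971 bases. Gm37248 (ENSMUSG00000103216) is a transcript of 3174 bases with no intron at chr17:52103045-52106218, and 5830444F18Rik (ENSMUSG00000102744) has 1992 bases at chr17:52098498-52100489. Both are read from the same strand as Satb1 and lie in intron 5 of the canonical transcript, a stretch of 17790 bases at chr17:52092669-52110458. Gm37248 starts 34.4 kb and 5830444F18Rik 40.1 kb downstream of the outermost Satb1 start. The nearest exon of any annotated Satb1 transcript, canonical or not, is 3139 bases away from Gm37248 and 5829 bases away from 5830444F18Rik. Neither thus shares an exonic base with the host gene, while both would be part of its unspliced RNA. The bases of the 3 rows differ in composition: G and C made up 40.1% of Gm37248 and 37.2% of 5830444F18Rik, near the 40.6% of the whole intron, and 47.6% of the Satb1 exons.

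The first 200 bases of each inner transcript are shown because they mark what was counted beside Satb1, read 5′ to 3′ on the minus strand of the reference, with the longest unbroken run of A and T in capitals (17 bases in 5830444F18Rik and 8 bases in Gm37248). The 5830444F18Rik stretch, chr17:52100290-52100489, held 33% G and C, and the Gm37248 stretch, chr17:52106019-52106218, held 41.5%.
5830444F18Rik: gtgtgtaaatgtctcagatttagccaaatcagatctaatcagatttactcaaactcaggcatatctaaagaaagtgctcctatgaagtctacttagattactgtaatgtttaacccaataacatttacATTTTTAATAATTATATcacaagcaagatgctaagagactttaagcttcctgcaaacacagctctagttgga
Gm37248: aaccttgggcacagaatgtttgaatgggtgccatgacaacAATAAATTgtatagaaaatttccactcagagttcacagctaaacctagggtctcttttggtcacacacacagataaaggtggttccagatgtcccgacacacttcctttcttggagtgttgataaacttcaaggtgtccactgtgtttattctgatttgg

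The libraries held between 87421755 and 119078882 estimated counts. The summed Treg markers (Foxp3, Il2ra, Ctla4, Ikzf2 and Tnfrsf18) stood between 3156 and 3978 counts per 1000000 library counts (CPM) in all 6, and no defining marker of the list was at 0. Replicate 3 of the WT group stood apart in RNA of other cells, with 5341 CPM of summed red cell markers against 365 to 678 CPM in the others, and 1312 CPM of neutrophil markers against 32.3 to 168 CPM. Replicate 2 of the KO group stood apart from both libraries of its own group: the chi-square per degree of freedom between it and the others was 142 and 177, against 29.6 between the other two. Values without either library are given for the 3 rows, and for some other genes a value with 1 library left out. Where no such value is given, the gene should not be taken as stable. In these bulk libraries, fewer cells that carry a transcript and less of it per cell cannot be told apart.

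Satb1 was well expressed in every library. With WT Tconv it stood at 151, 190 and 153 CPM in replicates 1, 2 and 3, from 14546, 18377 and 17885 counts. In Treg with HP1α KO Tconv it stood at 140, 98.9 and 139 CPM, from 12700, 9878 and 12243 counts. The highest library of the KO group thus lay 11.7 CPM below the lowest of the WT group, a gap smaller than the SD within either group, and replicate 2 was the extreme of each group, highest with WT Tconv and lowest with HP1α KO Tconv. The means were 165 ± 22.1 CPM and 126 ± 23.3 CPM (SD, n = 3 each), 1.31-fold higher with WT Tconv. The fitted log2 fold change, KO over WT Tconv, was -0.39 (SE 0.16). It was -0.24 without replicate 2 of the KO group, -0.26 without replicate 2 of the WT group, and was -0.44 without replicate 3 of the WT group. Per kilobase of the canonical transcript the level was 23.6 ± 3.17 CPM per kb with WT Tconv and 18.04 ± 3.34 CPM per kb with HP1α KO Tconv, above 82.5% and 78.4% of the 18189 tested genes with a length.

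Gm37248 was lower with HP1α KO Tconv by a wider margin than its host gene. It had 843, 1231 and 1162 counts with WT Tconv, or 8.77, 12.8 and 9.93 CPM. With HP1α KO Tconv it had 502, 496 and 385 counts, or 5.52, 4.97 and 4.36 CPM. The groups did not overlap. The means were 10.5 ± 2.05 CPM and 4.95 ± 0.580 CPM (SD, n = 3 each), 2.12-fold higher with WT Tconv, with a log2 fold change of -1.08 (SE 0.17). It was -1.08 without replicate 2 of the KO group, and leaving out any 1 library gave between -1.18 and -0.90.

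5830444F18Rik had the same order of groups at a lower level. Its counts were 333, 506 and 569 with WT Tconv, which came to 3.47, 5.24 and 4.86 CPM. With HP1α KO Tconv the counts were 231, 214 and 183, which came to 2.54, 2.14 and 2.07 CPM. Again no KO library reached the lowest WT library. The means were 4.52 ± 0.935 CPM and 2.25 ± 0.253 CPM (SD, n = 3 each), 2.01-fold higher with WT Tconv, with a log2 fold change of -1.01 (SE 0.20) and a range of -1.15 to -0.87 when 1 library was left out, with -0.97 without replicate 2 of the KO group.

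**Figure D1:**
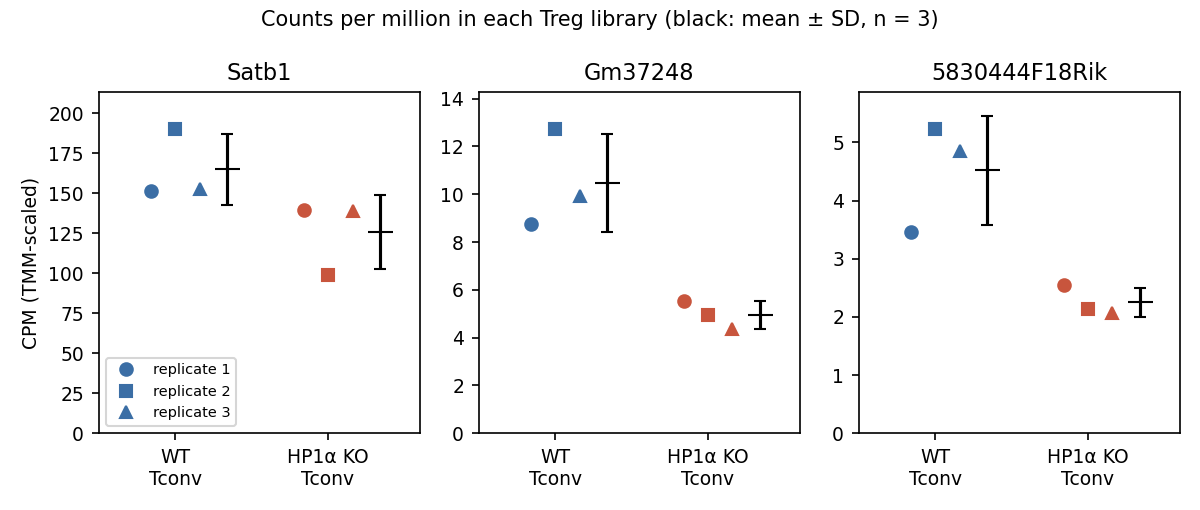
TMM-scaled CPM (vertical axes, each starting at 0) of Satb1, Gm37248 and 5830444F18Rik in each of the 6 Treg libraries, by genotype of the co-injected Tconv, with the replicate as the symbol and the mean ± SD of 3 libraries in black. In each panel the lowest WT library is above the highest KO library, by 151 against 140 CPM for Satb1, 8.77 against 5.52 CPM for Gm37248 and 3.47 against 2.54 CPM for 5830444F18Rik.

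For scale, of the 18321 genes tested 11.6% had groups that did not overlap with lower values in the KO group, and all 3 rows were among them. By edgeR's quasi-likelihood test no gene of the table passed an adjusted p of 0.05 (0% called), while 2656 genes had an unadjusted p under that value. By DESeq2, 526 of 12097 genes with an adjusted p passed, and 367 genes, 3.03% of the 12097, were called and lower. Gm37248 and 5830444F18Rik were among the latter, which is how they had been picked out, and Satb1 was not. Since the rows were chosen on this contrast, nothing is read from these counts.

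Levels of the 3 rows were also set side by side per kilobase. With WT Tconv, Satb1 stood at 23.6, Gm37248 at 3.30 ± 0.644 and 5830444F18Rik at 2.27 ± 0.469 CPM per kb, and with HP1α KO Tconv they stood at 18.04, 1.56 ± 0.183 and 1.13 ± 0.127 CPM per kb. The order was the same in both groups. Within each group every library of Gm37248 stood above every library of 5830444F18Rik on this scale.

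The 3 rows were also summed in each library. They share no exonic base, and Gm36931, a transcript inside Satb1 that shares 156 exonic bases with it, was not included. The sum thus does not address how Salmon divides reads between overlapping models. The sum had a log2 fold change of -0.44 (SE 0.15), and of -0.51 to -0.30 when 1 library was left out, lowest in size without replicate 2 of the KO group. The ratio of an inner transcript to Satb1 within a library needs no scaling between libraries. For each 100 Satb1 counts there were 5.80, 6.70 and 6.497 counts of Gm37248 with WT Tconv and 3.95, 5.02 and 3.15 with HP1α KO Tconv. The groups did not overlap, and the mean log2 ratio was lower by 0.67, that is -0.67, with HP1α KO Tconv. For 5830444F18Rik the same ratio was 2.29, 2.75 and 3.18 counts with WT Tconv and 1.82, 2.17 and 1.495 with HP1α KO Tconv, a difference of -0.59. Here the groups were separated by 2.29 against 2.17 counts, less than the SD of either group. In these libraries the differences of both inner transcripts were larger in size than that of Satb1. How often such ratios stand apart for other host genes and the transcripts inside them was not counted. Nothing is therefore read from the separation of the groups on this ratio.

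Inside Satb1 lie 5 transcripts on the same strand, and the other 3 overlapped between the groups on this ratio, Gm36931 through a single library. Gm36931, of 4801 bases, starts 62.2 kb downstream of the Satb1 start and covers a Satb1 exon with 156 shared bases, so reads of that exon may be counted in either. C230085N15Rik and E430014B02Rik lie in intron 9, starting 72.0 and 84.9 kb downstream. Gm36931 stood at 12.5, 16.1 and 13.2 CPM with WT Tconv and at 9.66, 10.6 and 9.41 CPM with HP1α KO Tconv, with no overlap and a log2 fold change of -0.50 (SE 0.12). Its adjusted p was 0.209 by edgeR and 0.0180 by DESeq2, and the DESeq2 value ranged from 0.0048 to 0.0874 when 1 library was left out, above 0.05 without replicate 2 or 3 of the WT group or replicate 1 or 3 of the KO group. C230085N15Rik stood at 10.8, 11.9 and 9.24 CPM against 8.25, 8.60 and 8.51 CPM, with a log2 fold change of -0.33 (SE 0.12) and an edgeR adjusted p of 0.270. The values of E430014B02Rik overlapped between the groups, with a log2 fold change of -0.26 (SE 0.23), which was 0.02 without replicate 2 of the WT group and -0.47 without replicate 3. Relative to Satb1, all 3 overlapped between the groups over the 6 libraries, with log2 ratio differences of -0.09 for Gm36931, 0.07 for C230085N15Rik and 0.18 for E430014B02Rik. For Gm36931 the overlap came from replicate 2 of the KO group alone, at 10.7 counts for each 100 Satb1 counts, while the other KO libraries, at 6.91 and 6.79, lay below the 8.26 to 8.62 of the WT group. Without replicate 2 of the KO group the differences were -0.30, with groups apart, for Gm36931, -0.10 for C230085N15Rik and 0.06 for E430014B02Rik. Without replicate 3 of the WT group they were -0.08, 0.03 and 0.00. The count of Gm37248 over the summed counts of these 3 was 0.315, 0.372 and 0.387 with WT Tconv and 0.248, 0.218 and 0.202 with HP1α KO Tconv, and that of 5830444F18Rik 0.124, 0.153 and 0.189 against 0.114, 0.0939 and 0.0962. Neither pair of groups overlapped, for 5830444F18Rik by 0.124 against 0.114. Both rows had been chosen on this contrast, and how often such ratios stand apart elsewhere was not counted. Nothing is therefore read from this separation.

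**Figure D2:**
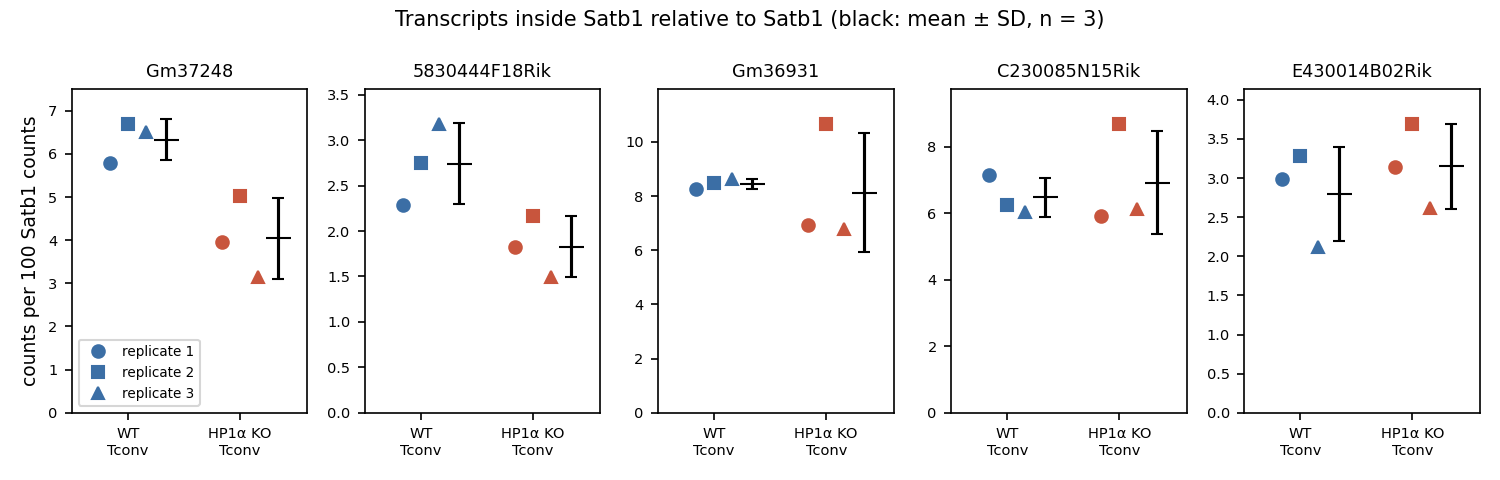
Counts of each of the 5 same-strand transcripts inside Satb1 for each 100 Satb1 counts of the same library (vertical axes, each starting at 0), by genotype of the co-injected Tconv, with the replicate as the symbol and the mean ± SD of 3 libraries in black. The groups are apart for Gm37248 (5.80 or more against 5.02 or less) and 5830444F18Rik (2.29 or more against 2.17 or less) and overlap for C230085N15Rik, E430014B02Rik and, through replicate 2 of the KO group alone (10.7), Gm36931.

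Around Satb1 the table held 11 other rows within 1 Mb, of which 9 were tested. None passed edgeR's adjusted threshold. At an unadjusted p under 0.05, 5 of the 9 were lower and 0 higher with HP1α KO Tconv, beside 7.52% and 6.98% of all genes tested. Those 5 were Gm36931, C230085N15Rik and opposite-strand transcripts at the Satb1 start (Gm6934) or upstream of it (Gm37593 and Gm37266). Gm6934 is read from the plus strand and shares 776 exonic bases with the 5′ end of Satb1. The libraries were made with a stranded kit, but the strand setting of the counting was not given in the sources used here, so it is not known whether its reads were kept apart from those of Satb1. It had a log2 fold change of -0.51 (SE 0.20) and an edgeR adjusted p of 0.297. Gm37593, 9.27 kb upstream of the Satb1 start, stood at 2.37, 2.82 and 2.06 CPM with WT Tconv and at 1.40, 1.37 and 1.24 CPM with HP1α KO Tconv. Its groups were apart, the log2 fold change was -0.86 (SE 0.19), and the adjusted p was 0.209 by edgeR and 0.0186 by DESeq2, with 0.0113 to 0.0854 when 1 library was left out, above 0.05 without replicate 1 or 2 of the WT group or replicate 3 of the KO group. Gm37266, 16.6 kb upstream, had 69 to 98 counts with WT Tconv and 29 to 49 counts with HP1α KO Tconv and a log2 fold change of -0.88 (SE 0.28, edgeR adjusted p = 0.242). Further away the differences were small against their errors. Gm37176, 25.6 kb upstream, had a log2 fold change of 0.11 (SE 0.47), which ran from -0.45 to 0.39 when 1 library was left out. The lncRNA Gm19585, 153 kb upstream, had 0.04 (SE 0.16, from -0.10 to 0.19), and Tbc1d5, which encodes a GTPase-activating protein of membrane traffic and is the nearest coding gene downstream in the table, 0.02 (SE 0.09, from -0.05 to 0.09).

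**Figure D3:**
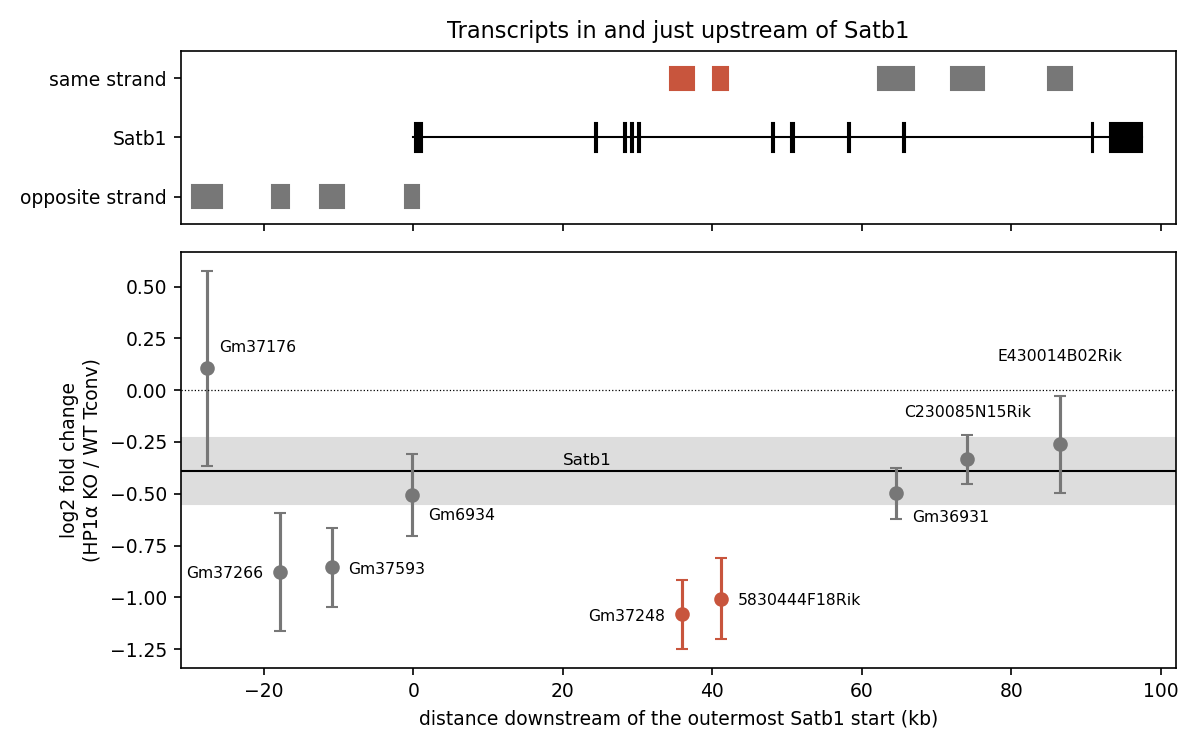
The upper panel draws the exons of the canonical Satb1 transcript and the tested transcripts on either strand by distance in kb from the outermost Satb1 start, positive in the direction of transcription. The lower panel gives their fitted log2 fold changes, HP1α KO over WT Tconv, with the SE as bars and Satb1 as the line at -0.39 with its SE in grey; Gm37248 (-1.08) and 5830444F18Rik (-1.01), in red, are the lowest points drawn.

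The members were set beside all like pairs in the table: a coding gene and a noncoding or TEC transcript that lies wholly inside it on the same strand. There were 950 such pairs with both tested, in 697 host genes. The median log2 fold change was -0.05 for host genes and -0.17 for inner transcripts, and the median difference, inner minus host, was -0.11. The inner transcript was lower with HP1α KO Tconv in 652 pairs (68.6%) and the host gene in 621 pairs (65.4%), beside 9431 of the 18321 genes tested. The differences from Satb1 were -0.69 for Gm37248 and -0.62 for 5830444F18Rik, and 49 pairs (5.16%) had a difference as low as that of Gm37248 or lower, and 73 pairs (7.68%) as low as that of 5830444F18Rik or lower. Among the 533 pairs with a mean of at least 100 counts in both genes, these were 13 and 26 pairs, beside a median difference of -0.12. Both transcripts had been chosen for low values in this contrast, which fixes their place among the pairs in part, so these shares only describe where they lie. Across the 950 pairs the log2 fold changes of host and inner transcript had a Pearson r of 0.41, over pairs that share libraries, scaling and at times a host gene.

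**Figure D4:**
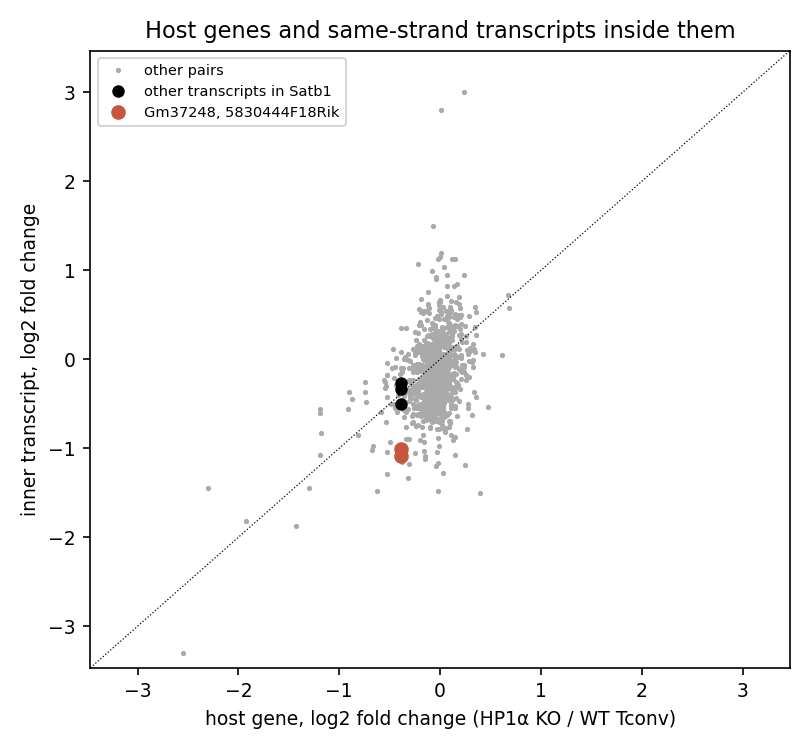
Fitted log2 fold changes, HP1α KO over WT Tconv, of 950 pairs of a coding host gene (horizontal axis) and a same-strand transcript inside it (vertical axis); the dotted line marks equal values. Pairs within Satb1 are drawn larger, with Gm37248 and 5830444F18Rik in red, well below the line, and the other 3 in black, close to it.

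The share of inner transcripts was also lower in the KO libraries over these pairs, which hold 942 inner transcripts, with no test made. Summed over these inner transcripts and their hosts, there were 3.998, 4.41 and 4.25 inner counts for each 100 host counts with WT Tconv and 3.78, 3.71 and 3.66 with HP1α KO Tconv. These groups did not overlap either. Its part in the lower ratios of Gm37248 and 5830444F18Rik to Satb1 was not tested. Replicate 3 of the WT group, with the highest red cell, neutrophil and macrophage marker levels, had Satb1 at 153 CPM. Replicates 1 and 2 of that group had 151 and 190 CPM. Without replicate 3 of the WT group the log2 fold changes were -0.44 for Satb1, -1.12 for Gm37248 and -0.95 for 5830444F18Rik.

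Of the other listed homeobox genes of the CUT class, Cux1 alone passed the filter, with a log2 fold change of -0.11 (SE 0.06, edgeR adjusted p = 0.479). Its value was -0.07 without replicate 1 of the KO group.

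The other genes of the SATB1 pathway were taken from lists of partners, target genes and regulators. Of 59 listed genes 58 were in the table and 52 were tested, and their median log2 fold change was -0.01, the same as over all genes tested (-0.01). None passed edgeR's adjusted threshold. At an unadjusted p under 0.05, 5 were lower and 5 higher, where 14.5% of all genes tested were called in either direction. DESeq2 called 1 lower (Ctla4) and 1 higher (Zbtb7b), beside 3.03% and 1.31% of its genes, or 4.35% in all.

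Upstream of Satb1, 11 regulators were tested. Foxp3, which encodes the factor that represses Satb1 in Treg, stood at 200, 222 and 209 CPM with WT Tconv and at 228, 154 and 252 CPM with HP1α KO Tconv. These values overlapped, with a log2 fold change of 0.00 (SE 0.18) that ran from -0.14 to 0.19 when 1 library was left out, the highest without replicate 2 of the KO group. Mir155hg, the host transcript of miR-155, stood at 16.8, 14.9 and 17.7 CPM with WT Tconv and at 12.6, 13.95 and 9.96 CPM with HP1α KO Tconv. Its groups did not overlap, with a log2 fold change of -0.44 (SE 0.14), an edgeR adjusted p of 0.241 and a DESeq2 adjusted p of 0.0666. Mature miR-155 was not measured. Its sequence, from RefSeq, and its match in Satb1 are shown because this microRNA is the known link between FOXP3 and Satb1 mRNA, with the seed (bases 2 to 8) and the 7 matching bases in capitals.
miR-155-5p: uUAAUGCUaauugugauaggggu
Satb1 site: tggagcctcaaataAGCATTAt

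The 7 letters AGCATTA, searched on the transcribed strand, occurred at 1 place in the Satb1 3′ UTR of 3812 bases, at its bases 332 to 338 (the printed stretch is chr17:52046587-52046608, minus strand), and at some place in 9.2% of 20693 canonical 3′ UTRs. This is a match of letters, not a measured site. Among the other regulators, Gata3, a lineage factor of helper T cells, had a log2 fold change of -0.16 (SE 0.10) and Runx1 of -0.13 (SE 0.08), which were -0.05 and -0.07 without replicate 2 of the KO group. Runx1 was -0.08 without replicate 2 of the WT group. Stat6, which carries the IL-4 signal that raises Satb1 in helper T cells, had 0.13 (SE 0.06). None of these passed a test.

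Partner proteins of SATB1 spread over both directions. Of 12 tested, 8 had a negative and 4 a positive log2 fold change, with a median of -0.06 and a range of -0.24 to 0.24. Smarca5, the ATPase of ISWI remodelling complexes that SATB1 recruits, stood at 323, 334 and 366 CPM with WT Tconv and at 282, 310 and 277 CPM with KO Tconv, a log2 fold change of -0.24 (SE 0.08) with an edgeR adjusted p of 0.246. Hdac1, a histone deacetylase of corepressor complexes, had 0.24 (SE 0.18), and this came from replicate 2 of the KO group at 118 CPM, since the other 5 libraries stood between 73.9 and 79.4 CPM and the log2 fold change without it was 0.00. Ctnnb1, which encodes β-catenin, had 0.15 (SE 0.07), and 0.23 without replicate 1 of the WT group, and Ep300, a histone acetyltransferase, -0.15 (SE 0.20). Ep300 too rested on replicate 2 of the KO group, at 82.1 CPM against 132 to 144 CPM in the other 5 libraries, and without it had a log2 fold change of 0.06.

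Of the 5 Treg genes whose enhancers depend on SATB1 in thymic precursors, Ctla4, the inhibitory receptor of the CD28 family, stood at 1246, 1349 and 1112 CPM with WT Tconv and at 1028, 1018 and 798 CPM with HP1α KO Tconv. Its groups did not overlap (groups were apart in 11.6% of all genes tested downwards and in 11.5% upwards) and the log2 fold change was -0.38 (SE 0.12). The adjusted p was 0.232 by edgeR and 0.0414 by DESeq2, and the DESeq2 call held in 1 of 6 fits with a library left out, that without replicate 2 of the KO group (0.0118 to 0.236 over the 6). Cd5, a damper of T cell receptor signalling, stood at 541, 603 and 525 CPM against 624, 672 and 615 CPM, a log2 fold change of 0.20 (SE 0.08, edgeR adjusted p = 0.316). The IL-2 receptor chain Il2ra had -0.04 (SE 0.18) and Ikzf2, which encodes Helios, -0.16 (SE 0.11), both with overlapping groups. When 1 library was left out, Il2ra ran from -0.18 to 0.15, highest without replicate 2 of the KO group, and Ikzf2 from -0.24 to -0.08.

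T cell genes under SATB1 control went in both directions, with 8 negative and 7 positive values among 15 tested. Zbtb7b, which encodes the CD4 lineage factor ThPOK, stood at 136, 136 and 132 CPM with WT Tconv and at 158, 157 and 166 CPM with HP1α KO Tconv. Its log2 fold change was 0.25 (SE 0.06), with an adjusted p of 0.209 by edgeR and 0.0499 by DESeq2, and the DESeq2 value ran from 0.000252 to 0.128 when 1 library was left out, above 0.05 without any of the WT group. Runx3, the CD8 lineage factor that ThPOK opposes, stood at 39.0, 41.8 and 40.2 CPM against 34.8, 25.9 and 36.2 CPM, a log2 fold change of -0.32 (SE 0.12, edgeR adjusted p = 0.295) that was -0.18 without replicate 2 of the KO group. Cd8a, a gene of the CD8 coreceptor, was under 0.5 CPM in every library, where its log2 fold change of -0.71 (SE 0.75) is uninformative and was 0.02 without replicate 3 of the WT group. Pdcd1, which encodes the receptor PD-1 and is silenced by SATB1 in activated T cells, stood at 98.8, 88.7 and 80.3 CPM against 111, 136 and 94.6 CPM, overlapping, with a log2 fold change of 0.35 (SE 0.14, edgeR adjusted p = 0.319) that was 0.20 without replicate 2 of the KO group. Bcl6, the factor of follicular helper cells, had -0.32 (SE 0.12, edgeR adjusted p = 0.287), and Il7r, the IL-7 receptor chain, 0.09 (SE 0.09), which ran from 0.04 to 0.19 when 1 library was left out.

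Satb1 is high in naive T cells, so 10 genes of that state were read beside it. Lef1, a factor of early T cells, had a log2 fold change of 0.02 (SE 0.20), Tcf7 -0.08 (SE 0.11) and Ccr7, the chemokine receptor for lymph node entry, -0.31 (SE 0.13, edgeR adjusted p = 0.352). Without replicate 2 of the KO group Lef1 had 0.23 and Tcf7 0.03, and without replicate 3 of that group Ccr7 had -0.19. Klf2, a factor of quiescent T cells, had 0.37 (SE 0.21), and 0.13 without replicate 3 of the KO group. Igfbp4 stood at 9.18, 11.3 and 14.6 CPM with WT Tconv and at 17.5, 13.5 and 23.1 CPM with HP1α KO Tconv, overlapping, with 0.62 (SE 0.24), an edgeR adjusted p of 0.319 and 0.41 without replicate 3 of the KO group. Dapl1, at 0.143 to 0.803 CPM in the 6 libraries, had -0.54 (SE 0.64), and 0.35 without replicate 3 of the WT group. As a list these genes had a median of 0.02, with 4 negative and 6 positive values.

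**Figure D5:**
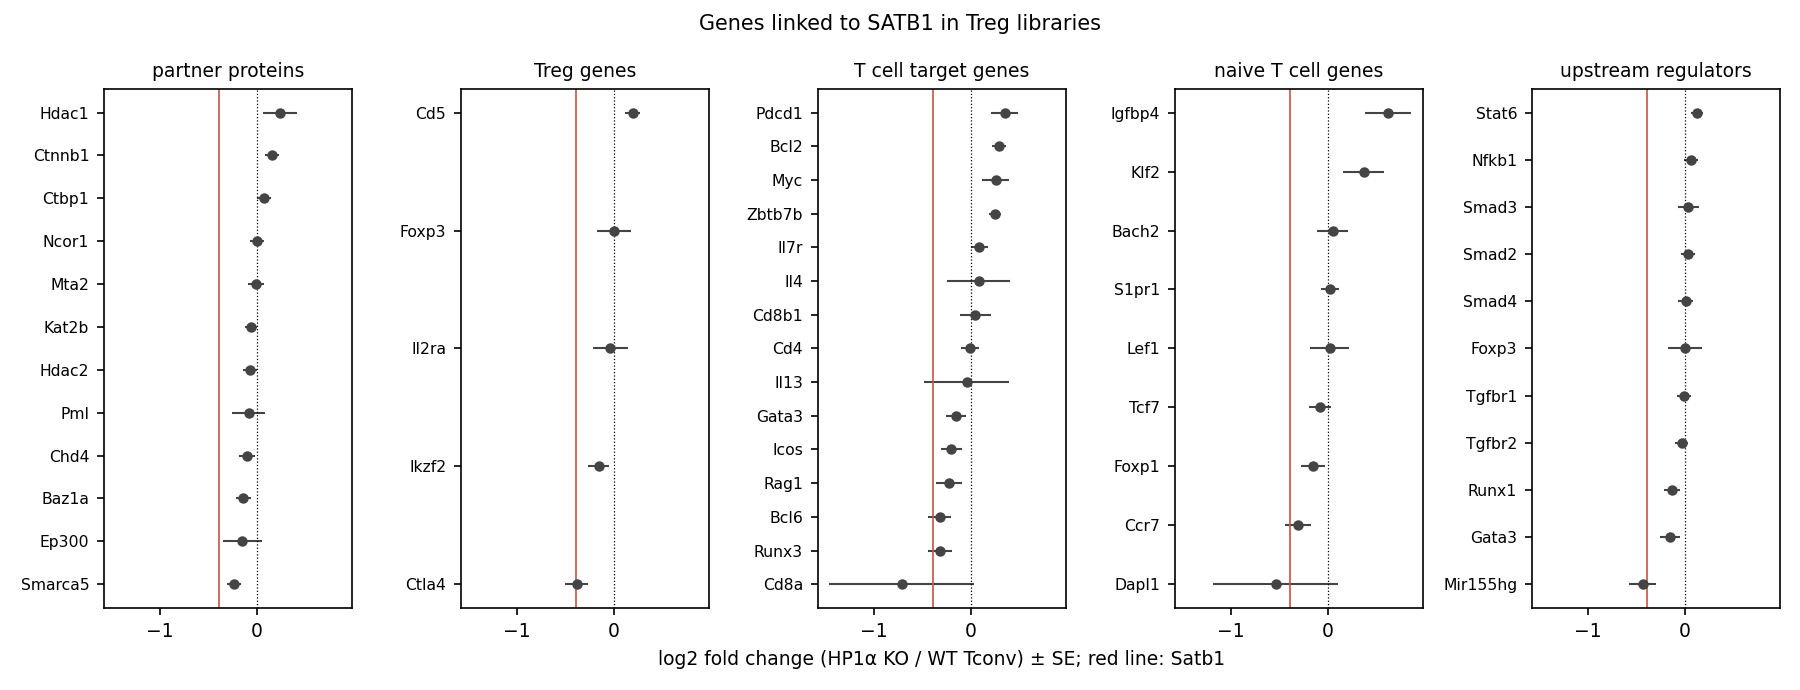
Fitted log2 fold changes, HP1α KO over WT Tconv, with SE as bars, of the tested genes in the lists (1 gene not drawn) of SATB1 partner proteins, Treg genes with SATB1-dependent enhancers, T cell target genes, naive T cell genes and upstream regulators; the dotted line marks 0 and the red line Satb1 at -0.39. Points fall on both sides of 0 in every list, from -0.71 (Cd8a, near the detection limit) to 0.62 (Igfbp4).

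The genes whose levels most resembled that of Satb1 were named by Pearson r of log2 CPM over the 6 libraries, among 8847 genes with a mean of at least 10 CPM. The highest were Gm43313 (r = 0.994), Map2k7, a kinase of the JNK pathway (0.992), Itpkc, an inositol trisphosphate kinase (0.990), Akap8 (0.989) and Plod1 (0.988). The lowest were Tnpo2, a nuclear import receptor (-0.995), Atp9a (-0.993) and Eif3i, a subunit of a translation initiation factor (-0.989). Gm43313 stood at 13.0, 15.5 and 13.2 CPM with WT Tconv and at 11.5, 8.09 and 11.6 CPM with HP1α KO Tconv, with replicate 2 as the extreme of both groups, as in Satb1. Replicate 2 of the KO group, the lowest for Satb1, was not the lowest for Gm37248, 5830444F18Rik or Gm36931. With 6 libraries that share their scaling, such values describe these libraries only.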

How the data were processed

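Total RNA libraries were trimmed with Cutadapt and Trim Galore!, aligned with STAR to GRCm39 with an Ensembl annotation and quantified with Salmon in the nf-core RNA-seq pipeline. The values the authors deposited are estimated counts per gene, held as whole numbers and not normalized, so Salmon's model decides how reads of overlapping transcripts are divided. From these, edgeR version 4.0.16 in R version 4.3.3 was fitted to all genes with group as the only term (TMM, filterByExpr, glmQLFit with robust estimation, glmQLFTest, Benjamini-Hochberg adjustment). CPM used TMM-scaled library totals, marker sums unscaled totals. SE is the size of the fold change (log2) divided by the root of its F statistic. DESeq2 version 1.42.0, limma-voom (limma version 3.58.1), other scalings and filters, a replicate block and leaving out each library were alternatives. The fits were tested on simulated data. Gene models came from a GENCODE release on GRCm39 other than the counted Ensembl one, so lengths, introns, shared bases and host pairs may differ from the models counted. The miRNA came from a RefSeq table. With 3 libraries a group, an exact permutation test cannot go below p = 0.1. The members and lists were chosen with earlier results of these data known. Named genes were the members, their neighbours within 1 Mb with a mean of at least 10 counts, up to 4 genes a list by size of change (mean of at least 10 counts), certain Treg and T cell genes, and the genes most and least like Satb1. Certain listed genes are not reported here by name.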

Additional observations from a re-analysis of the deposited data

How the results depend on the processing

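The log2 fold changes of Satb1, Gm37248, 5830444F18Rik and of their sum kept their direction in every alternative scaling, filter and tool and with each library left out. Leaving out 1 library gave -0.47 to -0.24 for Satb1, -1.18 to -0.90 for Gm37248, -1.15 to -0.87 for 5830444F18Rik and -0.51 to -0.30 for the sum. The log2 ratio to Satb1 ran from -0.84 to -0.50 for Gm37248 and from -0.72 to -0.45 for 5830444F18Rik. The number of genes called depended strongly on the tool. edgeR called 0 of 18321 genes, 1 with upper quartile scaling, 38 when genes with at least 1 count over all libraries were kept, and 0 to 2 when 1 library was left out. DESeq2 called 526, and 181 with replicate 3 of the WT group left out, a fit added after the data had been seen. Of the list genes edgeR called 0 and DESeq2 2, and without that library DESeq2 called 1, Igfbp4 (adjusted p = 0.0301), and neither Ctla4 (0.0574) nor Zbtb7b (0.128). The cause was not tested. With the replicate number as a block edgeR called 1 gene, and the log2 fold changes were -0.40 for Satb1, -1.07 for Gm37248, -0.99 for 5830444F18Rik and -0.44 for the sum. The ratios to Satb1 were -0.67 and -0.59 with the block. The numbers were not taken as pairs, since the deviations of same-numbered libraries correlated at -0.04, 0.18 and 0.12, and 3 of 6 libraries were closest to their own number. Depth limits Cd8a and Gm37176, which had few counts.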
